A study of Homo sapiens with 5 samples.

Results

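Ribosome footprint libraries of A549 cells that stably overexpress RBMS1 were compared with libraries of A549 cells in which RBMS1 was stably depleted by either of 2 hairpins. The comparison sets the highest labelled level of RBMS1 against the lowest, with no control library in the contrast. Its members are the genes with a mean CPM (read count scaled to library size) of at least 5 over the 3 libraries, which are 10544 of the 58929 genes in the files. A549 is an established human lung adenocarcinoma line. The groups, by their labels, are RBMS1 overexpress (the library R1A), RBMS1 knockdown (sh1088 and sh1196, 1 library per hairpin), the knockdown control (an sh library) and the overexpression control (named pCDH, as a vector is). All 5 libraries are from A549 cells grown in the same medium. All lysates were made after cycloheximide at 100 µg/mL for 15 min, digested with RNase I for 5 min and fractionated on sucrose gradients. R1A is 1 library with no replicate. Nothing in the labels says whether a line is 1 clone or a pool, or gives the promoter that drives the RBMS1 transgene. The labels give total RNA as the molecule, and the protocol also mentions fragmented total RNA as an input, so that these are footprints rests on the design text. With no matched RNA values used here, more mRNA and more ribosomes per mRNA cannot be told apart.

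RBMS1 is an RNA-binding protein of the cytoplasm and nucleus that can affect the stability and translation of its target mRNAs. A footprint count reflects how many ribosomes sat on the mRNA of a gene, provided that the fragments are footprints. How far they are was not tested here. Cells that accumulate unfolded proteins in the endoplasmic reticulum (ER) start the unfolded protein response. Its sensors ATF6 and IRE1 raise chaperones and degradation factors of the ER, and its sensor PERK slows initiation while it favours translation of the transcription factor ATF4. ATF4 is also raised by amino acid shortage, through other kinases, and drives amino acid synthesis and stress genes.

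The 3 libraries held 10470077 (R1A), 11739398 (sh1088) and 10327747 (sh1196) expected counts, with mean fragment lengths of 40.9, 43.4 and 46.3 nt. Nuclear protein-coding genes took 62.3%, 42.2% and 66.0% of the counts in the same order, and mitochondrial genes took 11.2%, 19.6% and 9.44%. In make-up sh1088 thus stood apart from the other 2. Of the controls, the sh control had 37.7% of counts in nuclear protein-coding genes and a mean fragment length of 46.0 nt. The pCDH control had 66.3% and 52.3 nt. Levels below are scaled CPM, that is, CPM after TMM scaling, with the control libraries put on the same scale. Markers of lung carcinoma epithelium, such as keratins and aldo-keto reductases, summed to 13214 scaled CPM in R1A, 10298 in sh1088 and 8518 in sh1196. The summed levels of fibroblast markers (10.6, 12.4 and 44.8), immune markers (39.9, 39.8 and 74.4) and endothelial markers (3.05, 1.70 and 9.78) were low and highest in sh1196. Of these lists 3 of 10 fibroblast, 5 of 10 immune and 4 of 7 endothelial markers were at 0 in all 3 libraries.

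RBMS1 (ENSG00000153250.20, on the minus strand of chromosome 2 from 160272151 to 160493794) was at 38.3 scaled CPM in R1A (95% counting interval 34.8 to 42.0), 20.0 in sh1088 (17.1 to 23.2) and 14.2 in sh1196 (12.2 to 16.5). The overexpression library was the highest of the 3, and the pCDH control (27.8) and the sh control (33.8) lay between it and the hairpins. The log2 fold change was 1.16 (SE 0.46, adjusted p = 0.9996 by edgeR). It was 0.93 against sh1088 and 1.42 against sh1196. Reads of the endogenous gene and of a transgene were not told apart. By the authors' TPM RBMS1 was at 12.6 in R1A, 3.70 in sh1088 and 4.20 in sh1196. Its paralog RBMS2 was at 40.1 in R1A, 34.5 in sh1088 and 19.1 in sh1196. These intervals reflect only the error of counting, because reads copied by PCR may come from the same molecule.

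No gene passed the test across all genes. With edgeR 0 of 10544 genes (0%) reached an adjusted p of 0.05, and 308 (2.92%) had an unadjusted p under 0.05, of which 137 were higher and 171 lower in R1A. DESeq2 called 12 and limma-voom 0. The fit has 1 residual degree of freedom, and an exact permutation test of 1 library against 2 cannot go below 0.333. Differences are therefore given below as the levels in each library. The 12 genes called by DESeq2 were AL360012.1, PLA2G4A and MUC13 on the higher side, and HSPA5, FAM129A, CRELD2, HERPUD1, DDIT3, BEX2, AC092073.1, DMKN and SLC6A15 on the lower side. Of those 9 lower genes, 3 (HSPA5, CRELD2 and HERPUD1) are ER stress genes and DDIT3 is a target of ATF4. Of all 10544 genes tested, 26 are in the list of unfolded protein response genes and 24 in that of ATF4 targets. These calls rest on DESeq2, and their spread over lists was not tested.

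As a description, a gene was counted where R1A lay at least 2-fold above, or at least 2-fold below, each hairpin library. There were 95 such genes on the higher side (0.901% of those tested) and 168 on the lower side (1.59%). R1A lay above both hairpins by any margin for 3356 genes (31.8%) and below both for 3417 (32.4%). The 2-fold counts need both hairpins. With sh1196 alone they were 454 and 436, and with sh1088 alone 601 and 681. The higher side held 36.1% of the genes past 2-fold. With library size scaling it held 67.5%, with the authors' TPM 81.7% and with FPKM 54.4%. Library size scaling moved the median log2 ratio of all genes to 0.54 against sh1088 and -0.11 against sh1196, from values near 0 under TMM.

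The distance between R1A and the hairpins was not larger than the distance between the hairpins. R1A and sh1088 differed by at least 2-fold in either direction for 12.2% of genes, and R1A and sh1196 for 8.44%. The 2 hairpin libraries, which carry the same label, differed from each other for 12.7%. R1A and its own pCDH control differed for 27.1%, and the 2 controls differed from each other for 35.2%. The library with the most RBMS1 thus lay nearer to both knockdown libraries than to its own control. That control was far from the hairpins as well, at 22.1% of genes for sh1196 and 29.9% for sh1088. R1A therefore cannot be called like a knockdown from this distance. The closest pair was sh1088 and the sh control (7.01%).

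**Figure D1:**
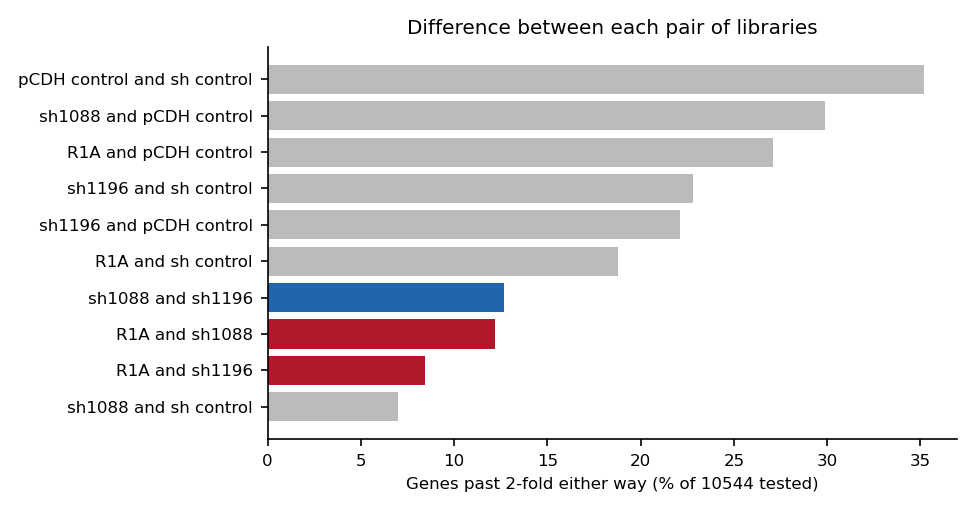
Bars give the percent of 10544 genes that differed by at least 2-fold in either direction between 2 libraries (horizontal axis from 0), with R1A against a hairpin in red, the hairpins against each other in blue and all other pairs in grey. The red bars (12.2% and 8.44%) are no longer than the blue one (12.7%), and the 2 controls are farthest apart (35.2%).

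The unfolded protein response list lay lower in R1A than in either hairpin library. Of 26 tested members 22 were below both hairpins (84.6%, against 32.4% of all genes tested), 10 of them by at least 2-fold (against 1.59%), and 0 were at least 2-fold higher. The median log2 fold change was -1.05, against -0.03 for all genes, with -1.01 against sh1088 and -1.07 against sh1196. Of these members 0 passed edgeR's adjusted test, while 10 had an unadjusted p under 0.05, all on the lower side.

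Promoter windows of 5 members are shown because the list is defined by a shared ER stress signal, and each holds the letters of an ER stress element just upstream of its start. The ER stress element (ERSE) was searched on both strands as CCAAT and CCACG with 9 bases between them, and its variant ERSE-II as ATTGG and CCACG with any base between them. The windows are the 250 bases before the start of the gene, from RefSeq (GRCh38.p14), and capitals mark the match. HSPA5 (chr9:125241344-125241593, minus strand), CRELD2 (chr22:49918384-49918633, plus strand) and XBP1 (chr22:28800570-28800819, minus strand) hold an ERSE. HERPUD1 (chr16:56931892-56932141, plus strand) and SDF2L1 (chr22:21642052-21642301, plus strand) hold an ERSE-II.
HSPA5: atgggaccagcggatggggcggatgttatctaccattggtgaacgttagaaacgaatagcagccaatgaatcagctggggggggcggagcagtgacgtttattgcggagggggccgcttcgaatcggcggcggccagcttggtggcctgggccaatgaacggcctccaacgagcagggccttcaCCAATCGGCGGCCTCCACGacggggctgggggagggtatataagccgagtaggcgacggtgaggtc
CRELD2: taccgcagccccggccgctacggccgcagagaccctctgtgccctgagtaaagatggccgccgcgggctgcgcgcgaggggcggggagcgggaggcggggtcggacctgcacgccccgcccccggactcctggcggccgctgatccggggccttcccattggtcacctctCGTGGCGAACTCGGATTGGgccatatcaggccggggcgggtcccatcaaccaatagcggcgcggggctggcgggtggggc
HERPUD1: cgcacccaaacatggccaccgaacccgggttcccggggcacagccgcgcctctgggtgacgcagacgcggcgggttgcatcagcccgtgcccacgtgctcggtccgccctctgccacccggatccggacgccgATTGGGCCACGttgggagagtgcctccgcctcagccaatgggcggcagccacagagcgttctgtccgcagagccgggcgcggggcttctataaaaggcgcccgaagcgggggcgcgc
SDF2L1: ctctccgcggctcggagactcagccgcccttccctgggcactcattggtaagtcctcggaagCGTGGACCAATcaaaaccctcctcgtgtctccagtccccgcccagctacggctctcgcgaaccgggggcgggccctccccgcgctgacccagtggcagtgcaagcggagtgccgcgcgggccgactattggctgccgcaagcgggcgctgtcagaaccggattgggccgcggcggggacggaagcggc
XBP1: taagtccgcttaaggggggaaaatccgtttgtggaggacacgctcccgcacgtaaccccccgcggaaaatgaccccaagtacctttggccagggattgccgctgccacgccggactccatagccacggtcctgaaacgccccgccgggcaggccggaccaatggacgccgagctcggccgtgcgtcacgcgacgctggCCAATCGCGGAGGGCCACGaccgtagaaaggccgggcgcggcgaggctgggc

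With the 50 bases after the start included, ERSE letters were found in 7 of 24 list members with a window (29.2%), in 16 of 8195 tested genes with a window (0.195%) and in 25 of all 27305 genes in the table (0.0916%). ERSE-II letters were found in 3 of the 24 (12.5%), in 0.159% of tested genes with a window and in 0.0696% of all genes in the table. The list was chosen as ER stress genes, so these excesses describe that choice and are no result of these libraries. Of the 10 members at least 2-fold below both hairpins, all of which have a window, HSPA5 and CRELD2 hold an ERSE, and HERPUD1, HYOU1 and SDF2L1 an ERSE-II. CALR, CANX, HSP90B1, PDIA6 and XBP1 hold an ERSE and were not among those 10. Taking every tested gene with either element, 29 in all, 19 lay below both hairpins and 6 above both. Of all genes tested 32.4% lay below both and 31.8% above both. List members made up 8 of those below both and 1 of those above. Of the 19 genes with an element that are not in the list, 11 lay below both and 5 above both. Their medians were -0.27 against sh1088 and -0.15 against sh1196. Among these FICD, an enzyme that modifies HSPA5, was at 4.71 scaled CPM in R1A, 22.4 in sh1088 and 13.2 in sh1196. ERO1B, an oxidase of disulfide formation, was at 9.51, 44.2 and 23.6 in the same order. Both were named after their values were seen. A match of letters is not a measured binding site.

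HSPA5 (chromosome 9), the main chaperone of the ER, was at 632 scaled CPM in R1A, 4893 in sh1088 and 4412 in sh1196. The hairpins lay close together and far above R1A, and the pCDH control (883) and sh control (1234) lay between, nearer to R1A. Its log2 fold change was -2.88 (SE 0.91, adjusted p = 0.9996 by edgeR). CRELD2, a secreted ER protein, was at 10.4 in R1A, 81.2 in sh1088 and 78.3 in sh1196. Both controls (35.5 for pCDH and 25.8 for sh) again lay between R1A and the hairpins, and the log2 fold change was -2.94 (SE 0.56, adjusted p = 0.376 by edgeR). HERPUD1, a factor of ER-associated degradation, was at 55.8 in R1A, 324 in sh1088 and 360 in sh1196. Here the sh control (266) was near the hairpins and the pCDH control (95.7) near R1A. HERPUD1 shares its strand with AC012181.1 and AC012181.2, so counts could be split between them.

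MANF, a secreted protein that binds HSPA5, was at 58.0 in R1A, 215 in sh1088 and 211 in sh1196, with 221 in the pCDH control and 75.6 in the sh control. SDF2L1, part of an ER chaperone complex, was at 23.2, 89.4 and 78.6 in the first 3, with 99.4 and 49.3 in the controls. For both, the pCDH control was as high as the hairpins, and R1A was the lowest of the 5 libraries. DNAJB9, a co-chaperone, was at 17.0 in R1A, 64.8 in sh1088 and 37.8 in sh1196. SYVN1, the ubiquitin ligase of ER-associated degradation, was at 50.6, 146 and 130, but shares its strand with FAU. PDIA4, a disulfide isomerase, was at 283, 632 and 842, and HYOU1, a large chaperone, at 86.2, 208 and 234. CRELD1 completes the 10 with 8.98, 18.4 and 22.2.

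The abundant lumenal chaperones lay lower by a smaller margin. HSP90B1 was at 992 in R1A, 1821 in sh1088 and 2314 in sh1196, and CALR, a lectin chaperone, at 411, 819 and 1022. For both the sh control (716 and 338) was below R1A, while the pCDH control (2133 and 2305) was above R1A and sh1088. For CALR the pCDH control was above both hairpins. Not every member followed. CANX, the membrane-bound partner of CALR, was at 1920 in R1A against 1789 and 1847, and ERO1A, an oxidase, at 146 against 95.8 and 121. XBP1, the transcription factor spliced by IRE1, was at 122 and lay between sh1088 (190) and sh1196 (93.0), and its log2 ratio changed sign with library size scaling and by TPM. Spliced and unspliced XBP1 were not told apart.

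Over all 5 libraries the 2 hairpins were the highest pair for 9 of 26 members (34.6%, against 5.7% of all genes tested), and R1A was the lowest library for 11 (42.3%, against 16.5%). The summed level of the list was 6548 scaled CPM in R1A, 14296 in sh1088 and 14886 in sh1196, with 13453 in the pCDH control and 6653 in the sh control. By sum R1A was thus close to the sh control, and the pCDH control was near the hairpins. The pCDH control lay above the sh control for 14 of the 22 members below both hairpins and below it for 8. The overexpression and knockdown lines have different controls, so their line, vector and library cannot be told apart from RBMS1. The median for pCDH against the sh control was 0.44. With that difference subtracted the list median was -1.85. Transcripts with more GC lay lower in R1A across 10057 nuclear protein-coding genes (Spearman rho = -0.17 against sh1088 and -0.38 against sh1196). With that GC trend taken out the list stood at -1.06 and -1.13. The pCDH control against the sh control had the opposite trend with GC (Spearman rho = 0.39). No GC trend was taken out of the control-subtracted median.

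**Figure D2:**
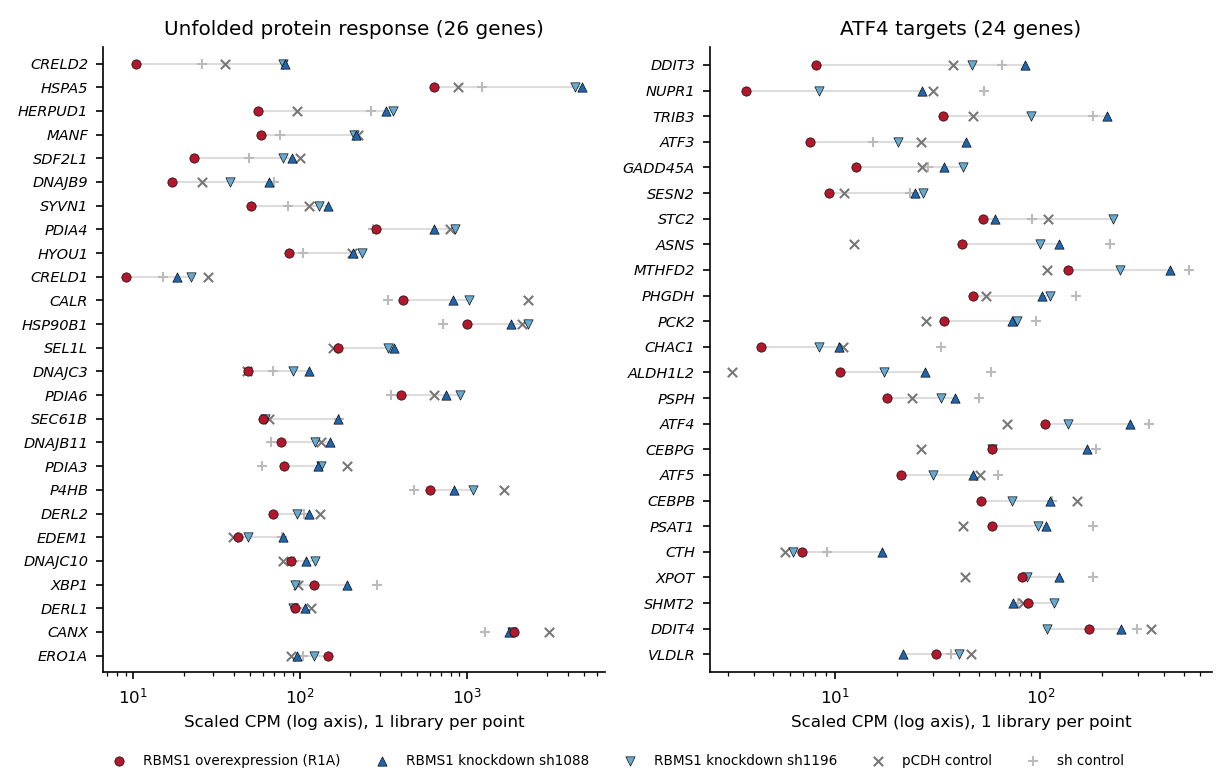
Each row is a tested member of the unfolded protein response list (left, 26 genes) or of the ATF4 target list (right, 24 genes), and each point is the level in 1 library in scaled CPM on a log axis. R1A (red circles) lies left of both hairpins (blue triangles) in 22 of 26 and 19 of 24 rows, and grey marks give the 2 control libraries.

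Targets of ATF4 lay lower in R1A as well, but the controls moved with this list. Of 24 tested members 19 were below both hairpins (79.2%, against 32.4% of all genes) and 0 above both. At least 2-fold below both were 9 members, against 1.59% of all genes. The median log2 fold change was -1.09, with -1.25 against sh1088 and -0.86 against sh1196. The pCDH control stood at -1.07 relative to the sh control in a comparison of 1 control library with another. With that difference subtracted its median was -0.00321. RBMS1 and whatever else differs between the lines cannot be told apart here.

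DDIT3, the transcription factor CHOP, was at 8.02 scaled CPM in R1A, 84.5 in sh1088 and 46.7 in sh1196. Both controls (37.5 for pCDH and 65.2 for sh) were several times above R1A, and the log2 fold change was -3.03 (SE 0.61, adjusted p = 0.376 by edgeR). TRIB3, a pseudokinase induced by CHOP and ATF4, was at 33.5 in R1A, 212 in sh1088 and 89.7 in sh1196. The sh control (180) was near sh1088 and the pCDH control (47.0) near R1A. ATF3, a stress transcription factor, was at 7.50, 43.4 and 20.1, and NUPR1, a small stress protein, at 3.66, 26.4 and 8.38. For DDIT3, TRIB3, ATF3 and NUPR1 sh1088 was the higher hairpin.

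The amino acid branch lay closer in both hairpins. ASNS, asparagine synthetase, was at 41.6 in R1A, 124 in sh1088 and 99.5 in sh1196. PHGDH, the first enzyme of serine synthesis, was at 46.7, 101 and 111, and PCK2, the mitochondrial PEP carboxykinase, at 33.8, 72.5 and 77.1. For these enzymes the sh control was above both hairpins (218 for ASNS and 149 for PHGDH), and ASNS in the pCDH control was at 12.3, below R1A. SESN2, a leucine sensor, was at 9.33, 24.5 and 26.8, and the DNA damage and stress protein GADD45A at 12.6, 33.8 and 42.2. ATF4 was at 105 in R1A, 274 in sh1088 and 137 in sh1196, so R1A was near sh1196 only. The ATF4 target core was searched in the same windows as TGATG and AA with any base between them. It was found in 4 of 19 members with a window (ASNS, ATF3, CEBPG and CHAC1, 21.1%) and in 2.61% of tested genes with a window. The list was chosen as targets of ATF4, so that excess too is no result of these libraries.

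Targets of p53, which overlap the stress genes above through GADD45A, had a median of -0.59, with 18 of 23 below both hairpins (78.3%, against 32.4%) and 0 above both. GDF15, a secreted stress cytokine, was at 80.4 in R1A, 278 in sh1088 and 166 in sh1196. CDKN1A, the cell cycle inhibitor p21, was at 62.4, 196 and 104, with 330 in the sh control. MDM2, the ligase of p53, was at 133, 179 and 153, a smaller margin. A549 cells carry wild-type p53.

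**Figure D3:**
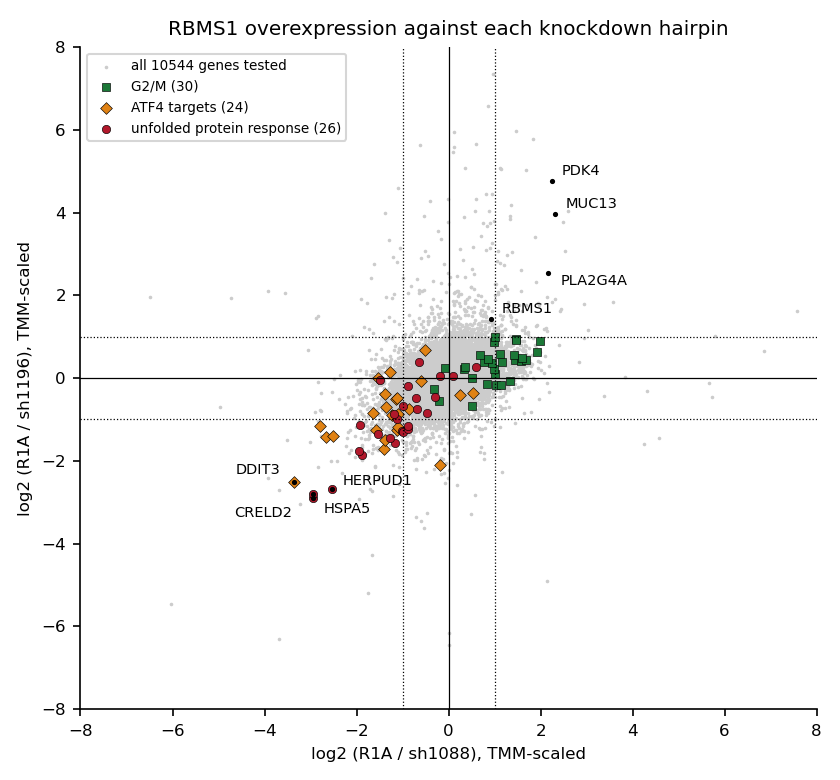
Each point is a gene, placed by its log2 ratio of R1A to sh1088 (horizontal) and of R1A to sh1196 (vertical), both of which share the R1A library. Dotted lines mark 2-fold, grey points are all 10544 genes tested, and the coloured lists show that 22 of 26 unfolded protein response members and 19 of 24 ATF4 targets lie in the lower left while 22 of 30 G2/M genes lie in the upper right.

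Cell cycle genes lay higher in R1A, mainly against sh1088. For the G2/M list the median was 0.62, and 22 of 30 members were above both hairpins (73.3%, against 31.8% of all genes), 1 of them by at least 2-fold. The median was 1.01 against sh1088 and 0.38 against sh1196. MKI67, the proliferation antigen Ki-67, was at 270 in R1A, 67.7 in sh1088 and 145 in sh1196. CENPF, a kinetochore protein, was at 108, 39.2 and 56.6, and CDK1, the mitotic kinase, at 83.3, 41.8 and 45.4. SMC4, a condensin subunit, was at 124, 61.4 and 61.7 and is the member past 2-fold. R1A was the highest of all 5 libraries for 21 of 30 members (70.0%, against 17.8% of all genes). The pCDH control stood at 0.58 relative to the sh control, and with that subtracted the list median was 0.000755. The S phase list had a median of 0.43, with 0.80 against sh1088 and 0.15 against sh1196. Of its 27 members 15 were above both (55.6%, against 31.8% of all genes). The controls' difference (1.23) ran the same way and was larger, and with it subtracted the median turned to -0.55.

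Fatty acid synthesis was the list with the most uniform position above the hairpins among lists of at least 10 members. Of 14 members 13 lay above both (92.9%, against 31.8% of all genes), although 0 by at least 2-fold, and the median was 0.65. ACACA, acetyl-CoA carboxylase, was at 146 in R1A, 39.3 in sh1088 and 84.6 in sh1196. FASN, fatty acid synthase, was at 219, 56.3 and 142, and the desaturase SCD at 1271, 717 and 745. ACSS2, acetyl-CoA synthetase, was the exception at 11.5 against 15.9 and 14.2. The controls' difference (0.54) ran the same way, and with it subtracted the median was 0.11. The cholesterol synthesis list, by contrast, was near 0 (median 0.10).

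**Figure D4:**
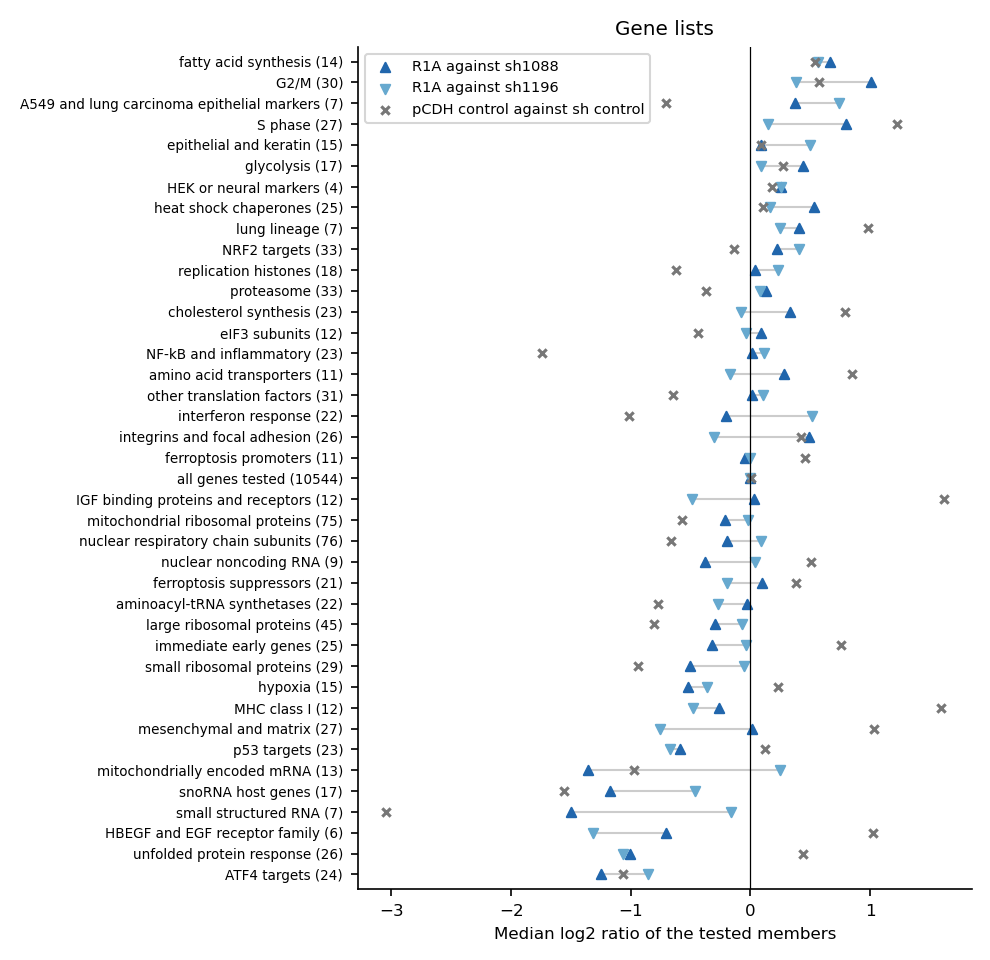
Each row is a gene list with its number of tested members, and the points are the median log2 ratio of R1A to sh1088, of R1A to sh1196 and of the pCDH control to the sh control. The unfolded protein response row lies at -1.01 and -1.07 and the ATF4 row at -1.25 and -0.86, and the control mark lies at 0.44 for the first and at -1.07 for the second.

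Junction and keratin genes were split. DSP and JUP, which link desmosomes to keratin, were at 128 and 325 scaled CPM in R1A, against 61.0 and 147 in sh1088 and 59.1 and 133 in sh1196. KRT19 was at 132, 65.6 and 35.3, and CLDN2, a pore-forming claudin, at 144, 56.5 and 9.29. For DSP, JUP, KRT19 and CLDN2 R1A was at least 2-fold above both hairpins and above both controls. OCLN, a tight junction protein, lay on the other side, at 11.4 in R1A against 22.8 and 33.4. EPCAM was at 12.6 in R1A, 18.2 in sh1088 and 2.71 in sh1196, so its direction depended on the hairpin. Over 15 members the median was 0.28, with 4 at least 2-fold above both hairpins (against 0.901% of all genes).

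Growth factor ligands lay lower in R1A while their receptor did not. AREG was at 52.4 scaled CPM in R1A, 176 in sh1088 and 145 in sh1196, and HBEGF at 2.88, 8.74 and 10.0. EREG was at 92.4, 158 and 242, and TGFA at 14.1, 22.1 and 33.5. Their receptor EGFR was at 359, between sh1088 (232) and sh1196 (438). The pCDH control was above the sh control for AREG (163 and 58.6) and HBEGF (7.92 and 0.951), and below it for EREG (87.3 and 106) and TGFA (5.47 and 23.9). Insulin-like growth factor genes were divided, with 5 of 12 below both hairpins (41.7%, against 32.4% of all genes), 2 above both, 5 between and a median of -0.06. On the lower side IGFBP1 was at 23.8 in R1A, 273 in sh1088 and 67.5 in sh1196. IGFBP2 was at 7.15, 22.1 and 32.6, and the ligand IGF2, which shares its strand with INS-IGF2, at 12.9, 37.5 and 71.0. IRS2, an adaptor of the insulin and IGF receptors named here after its values were seen, lay on the higher side at 36.7, 22.4 and 12.7.

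Matrix and mesenchymal genes were divided. Of 27 members 12 were below both hairpins (44.4%, against 32.4% of all genes), 3 of them by at least 2-fold, 5 were above both and 10 between. The list median was 0.02 against sh1088 and -0.76 against sh1196. CCN2, a matrix protein and YAP target, was at 17.5 in R1A, 55.6 in sh1088 and 118 in sh1196. COL6A2, a collagen chain, was at 3.84, 9.08 and 28.7. Fibroblast markers were highest in sh1196 too (44.8 scaled CPM against 10.6 in R1A), and their part in these values was not tested.

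Of the NRF2 target list, 16 of 33 members were above both hairpins (48.5%, against 31.8% of all genes) and 6 below both (18.2%, against 32.4%). AKR1B10, an aldo-keto reductase that is abundant in A549, was at 1169 in R1A, 530 in sh1088 and 263 in sh1196. CES1, a carboxylesterase, was at 45.1, 3.63 and 12.4, and EPHX1, epoxide hydrolase, at 437, 169 and 227. HMOX1, haem oxygenase, lay on the other side at 49.5 against 192 and 101. A549 cells lack functional KEAP1, the inhibitor of NRF2.

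SLC7A11, the cystine transporter that supplies glutathione synthesis, was at 511 in R1A, 418 in sh1088 and 299 in sh1196. It was the highest in R1A, but the sh control (859) was above all 3, and the log2 fold change was 0.51 (SE 0.57, adjusted p = 0.9996 by edgeR). On the TPM scale of the deposited files the level of SLC7A11 in R1A (40.8) lay between those in sh1088 (17.5) and sh1196 (46.3), so its place depends on the unit. SLC3A2, its partner chain, ran the other way with 664, 845 and 1305. GPX4, the peroxidase that limits ferroptosis, was at 72.2, 134 and 84.8. EIF3D, a subunit of initiation factor 3, was at 69.8, 61.2 and 71.1, so R1A was within the range of the hairpins. Of 21 ferroptosis suppressors 5 were above both hairpins (23.8%) and 8 below both (38.1%), near the 31.8% and 32.4% of all genes, and 0 were past 2-fold against both in either direction. Of 12 eIF3 subunits 0 were past 2-fold against both. Of all genes 0.901% were past 2-fold higher and 1.59% lower, so a 0 in lists of this size says little.

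Ribosomal protein genes lay lower by small margins under TMM scaling, while by TPM their medians were above 0, as was that of all genes against sh1088. Of 45 large-subunit genes 29 were below both hairpins (64.4%, against 32.4% of all genes) and 2 above both (4.44%, against 31.8%), 0 of them by 2-fold, with medians of -0.29 against sh1088 and -0.07 against sh1196. Of 29 small-subunit genes 15 were below both (51.7%), 2 of them by at least 2-fold, and of 75 mitochondrial ribosomal protein genes 34 (45.3%). The pCDH control lay below the sh control for these lists as well, with medians of -0.81, -0.94 and -0.58 in the same order. By TPM the medians over the mean of both hairpin ratios turned to 0.21, 0.13 and 0.29, and with the controls' difference subtracted to 0.50, 0.74 and 0.46. With library size scaling the large-subunit and mitochondrial lists turned too (0.0037 and 0.15). These signs are about 0, which is not the middle of all genes in either setting. The medians of all genes were 0.63 against sh1088 and -0.11 against sh1196 by TPM. They were 0.54 and -0.11 with library size scaling. The 13 mitochondrially encoded mRNAs all lay between the hairpins, with medians of -1.36 against sh1088 and 0.25 against sh1196. snoRNA host genes, many of whose spliced RNAs are degraded as they are translated, had a median of -0.84 with 14 of 17 below both hairpins (82.4%, against 32.4%). The controls' difference (-1.56) ran the same way, and with it subtracted the median was 0.66. SNHG12 was at 29.4 in R1A, 69.1 in sh1088 and 64.3 in sh1196, and shares its strand with the snoRNAs it hosts.

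Among single genes farthest above both hairpins, PLA2G4A, the cytosolic phospholipase that releases arachidonic acid, was at 159 scaled CPM in R1A, 35.5 in sh1088 and 27.2 in sh1196. Its log2 fold change was 2.34 (SE 0.48, adjusted p = 0.376 by edgeR), and both controls were lower than R1A (24.8 for pCDH and 71.7 for sh). MUC13, a membrane mucin, was at 89.1, 17.8 and 5.59, and PDK4, the kinase that inhibits pyruvate dehydrogenase, at 305, 64.4 and 11.1. SLC12A2, the sodium-potassium-chloride cotransporter, was at 819, 219 and 164. IQGAP2, a scaffold protein, was at 105, 23.7 and 27.0, with 17.0 and 18.2 in the controls. For PLA2G4A, MUC13, PDK4, SLC12A2 and IQGAP2, R1A was the highest of the 5 libraries. TP63, a p53 relative, was at 17.5, 4.65 and 1.48, and LGR6, an R-spondin receptor, at 81.6, 27.9 and 23.9. The other genes named by the rule on this side (ASB4, PIEZO2, SELENBP1, TNFSF15, KLHL4, GALNT5 and PLCXD3) had log2 fold changes from 1.89 to 3.16. Of these, SELENBP1 and TNFSF15 were far lower in sh1196 (0.247 and 4.11 scaled CPM) than in sh1088 (6.47 and 43.7). ASB4, PIEZO2, KLHL4, GALNT5 and PLCXD3 were low in both hairpin libraries. They ran from 2.27 to 3.29 scaled CPM in sh1088 and from 0.822 to 4.44 in sh1196. The hairpin means of TP63 and SELENBP1 were low too (3.07 and 3.36). All of these means are under the cutoff of 5, so these genes were tested only because R1A was high. Their place among the genes farthest above the hairpins is thus partly set by the cutoff.

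On the lower side FAM129A, a stress protein also called NIBAN1, was at 5.41 in R1A, 52.6 in sh1088 and 46.0 in sh1196. Its log2 fold change was -3.19 (SE 0.56, adjusted p = 0.286 by edgeR). The pCDH control was lower still, at 1.16, with the sh control at 37.6, 1 library each. BEX2 (2.18 in R1A, 35.8 and 12.3 in the hairpins) and DMKN (8.81, 64.5 and 39.6) had the same arrangement, with 1.35 and 7.79 in the pCDH control. NEFL, a neurofilament chain, was at 0.872, 13.3 and 6.74. TMEM158 was at 4.80, 18.0 and 19.6. EMB, RAB39B, CDH19, CCDC163 and ZDBF2, also named by the rule, had log2 fold changes from -2.63 to -1.99. MEG3, an imprinted noncoding RNA, was at 13.8, 42.0 and 60.9, and its neighbour MEG8 at 4.01, 11.7 and 9.37.

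**Figure D5:**
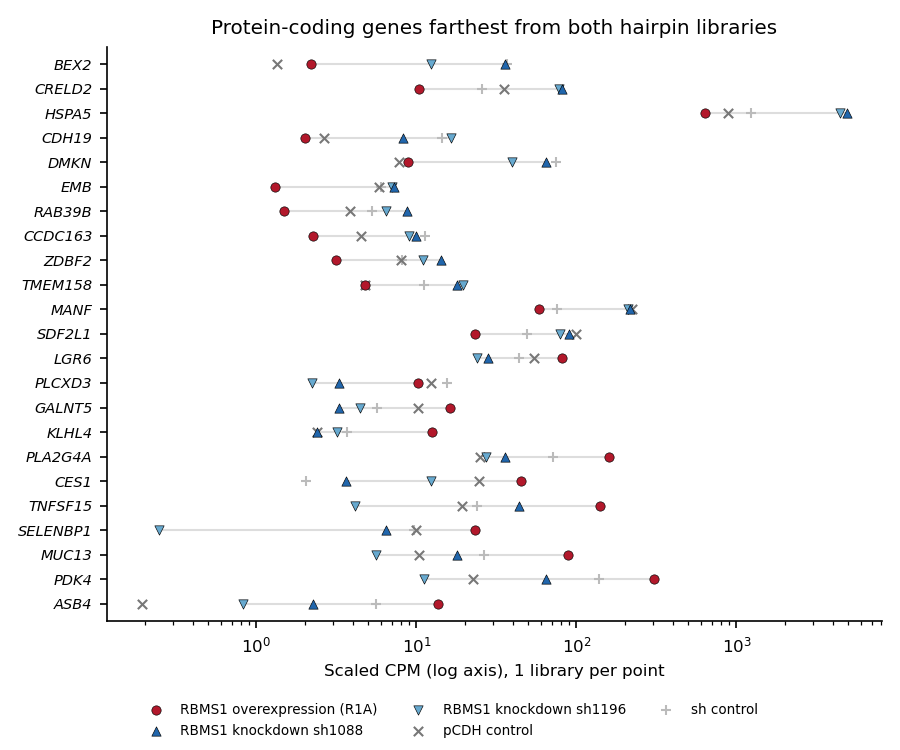
Rows are nuclear protein-coding genes without another gene on the same strand, 11 on the higher and 12 on the lower side, out of the 12 on either side for which the smaller of the log2 ratios to the 2 hairpins was largest, and points are the levels of the 5 libraries in scaled CPM on a log axis. R1A (red circles) lies outside the hairpins (blue triangles) by the choice of genes, and the grey control marks lie between them for HSPA5 and CRELD2 but beyond R1A for the pCDH control of BEX2.

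Some of the extreme genes overlap others, and their values are uncertain. AC092073.1, a readthrough of GPI and PDCD2L, had the smallest edgeR adjusted p (0.0822). It had 0 counts in R1A against 103 and 94, at least 37.1-fold lower with a floor of 3 counts in R1A. That floor covers counting only, not how reads were assigned between overlapping genes. RF01956, which lies in NEAT1, had 0 counts in R1A against 19 and 171. AL360012.1, which overlaps the spliceosomal RNA gene RNU11, was at 9947 in R1A, 1646 in sh1088 and 611 in sh1196, but at 32536 in the sh control and 0 in the pCDH control. DDIT3, ASNS, CRELD1, ACACA, IQGAP2 and SLC12A2 also share their strand with a noncoding gene or pseudogene. So do RBMS1, RBMS2, FAM129A, PIEZO2, TP63, NEFL, SMC4, GDF15 and HSPA8, and other named genes may as well. The posterior standard deviations of the counts in the deposited files were summed over R1A, sh1088 and sh1196. As a share of the summed count they came to 26.0% for AC092073.1, 17.1% for RF01956 and 3.81% for AL360012.1. The share was 1.17% for DDIT3 and 1.07% for ASNS. Genes that share a strand with another were 35.5% of those tested, 45.3% of those at least 2-fold higher and 33.3% of those at least 2-fold lower. Without them the 2-fold counts were 52 and 112 of 6797.

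The difference between the 2 control libraries was also taken out of every gene by subtracting pCDH against sh control from overexpression against knockdown, in a fit over all 5 libraries. Here edgeR called 59 of 10609 genes (0.556%), DESeq2 126 and limma-voom 8. PLA2G4A was among those called, at 3.90 (edgeR adjusted p = 0.0297). IGFBP2 stood at -5.97 (edgeR adjusted p = 0.00302) and CCN2 at -4.29 (edgeR adjusted p = 0.0404). Their counts show how much of this came from the controls. IGFBP2 had 82 counts in R1A and 195 and 397 in the hairpins, but 1926 in the pCDH control and 55 in the sh control. CCN2 had 201, 490 and 1433, with 1527 and 181 in the controls. PLA2G4A had 1823 in R1A against 313 and 331, and 385 and 528 in the controls. On the scaled CPM scale the log2 ratio of pCDH to the sh control was -1.53 for PLA2G4A, which is part of the 3.90. The called genes also include small RNAs that were nearly absent from the pCDH control alone. RPPH1 had 0 counts there, against 302579 in R1A, 300053 and 356108 in the hairpins and 241075 in the sh control. SNORD48 had 7, against 369, 321, 391 and 295 in the same order. Other called genes, such as SNURF and INO80B-WBP1, overlap another gene and had 0 counts in the pCDH control. HSPA5 stood at -2.38 (SE 1.20, edgeR adjusted p = 0.395) and was not called. Across 10544 genes the contrast of R1A with the hairpins and that of the controls, which share no library, were nearly unrelated, with a Pearson r of 0.07 and a Spearman rho of 0.07. That is a description across genes, which do not replicate each other.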

How the data were processed

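Values were taken from 5 libraries of A549 cells, of which 3 enter the comparison. The gene counts are expected counts of RSEM as the authors deposited them, per the file headers. The authors' TPM and FPKM, which RSEM scales by effective length per the file headers, served as alternatives. Gene lengths and posterior deviations of the counts were also deposited (another unit per gene) and gave the fragment length. Of the tools listed in the submitters' processing notes, without roles, RSEM is at version 1.3.1 and STAR at 2.4.2. The genome build is not given in the sources used here. Of 58929 identifiers 58656 matched GENCODE release 29, which gave coordinates, overlaps and GC content (GRCh38).

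Expected counts were rounded to whole numbers. Genes whose mean CPM reached 5 were tested with edgeR 4.0.16 in R 4.3.3 (TMM scaling, robust quasi-likelihood, Benjamini-Hochberg threshold 0.05). The script was tested on simulated data. Log2 ratios to each hairpin used a prior count of 2, and TPM and FPKM a pseudocount of 1. DESeq2 1.42.0, limma-voom (limma 3.58.1), other scalings, filters, a GC correction and leaving out each hairpin were alternatives. Intervals are exact Poisson. Nothing in the labels says that the hairpin libraries are separate cultures beyond their hairpins, so the p-values rest on a spread that may be technical. Lists are described by counts and medians beside those of all genes, with no set test. The rule names EIF3D, GPX4, RBMS1, SLC3A2 and SLC7A11 in any case, and adds 12 genes a side by the smaller of both hairpin log2 ratios, over all genes and over coding genes without overlap, and up to 4 members a list by edgeR p. Not every gene that the rule names is reported here. Other members were named after their values were seen. The members and lists were chosen with earlier results of these data known. Of 44 lists, 39 had at least 3 tested members. The authors' comparison tables were not used here.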

Additional observations from a re-analysis of the deposited data

How the results depend on the processing

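The count of 0 called genes was also 0 with filterByExpr (447 of 14800 at an unadjusted p under 0.05), nonrobust dispersion and limma-voom. It was 2 with library size scaling, with median-ratio size factors and with TMM from nuclear protein-coding genes, 1 with all 5 libraries in the fit, 12 with DESeq2 and 42 of 24094 with no filter on low counts. The 59 genes called after subtracting the controls' difference were 36 with library size scaling, 126 with DESeq2 and 8 with limma-voom. The 2-fold counts (95 higher, 168 lower) were 172 and 83 with library size scaling, 152 and 34 by TPM, 111 and 93 by FPKM, and 49 and 64 with a mean CPM of at least 20. Without 1 hairpin library they ran from 454 to 601 and from 436 to 681. Without overlapping genes, chosen after seeing the data, they were 52 and 112. No test can be had without a hairpin library, since 1 against 1 leaves no residual degrees of freedom. The cause of these differences was not tested.

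The median of the unfolded protein response list, taken here over the mean of both hairpin ratios (-1.04), was -0.82 with library size scaling, -0.77 by TPM and -1.85 with the controls' difference subtracted. ATF4 targets (-1.05) stood at -0.55 by TPM and -0.00321 with the controls subtracted, and G2/M (0.64) at 0.000755 with the controls subtracted. Of 39 list medians 8 changed sign with library size scaling, 10 by TPM and 13 with the controls subtracted. These signs were taken about 0, although the all-gene medians also moved. They stood at 0.54 against sh1088 and -0.11 against sh1196 with library size scaling, and at 0.63 and -0.11 by TPM.

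Of 105 genes named, 22 changed sign with the controls subtracted. They were GPX4 (1.51), XBP1 (1.44), CANX (-1.19), ASNS (2.71), PHGDH (0.28), PCK2 (0.64), ATF4 (1.41), CEBPG (2.07), CHAC1 (0.50), CDKN1A (0.73), MDM2 (0.76), CENPF (-0.67), FASN (-0.55), ACSS2 (0.18), EPCAM (-0.67), CES1 (-0.77), TGFA (1.15), EGFR (-0.40), HSPH1 (-0.098), FAM129A (1.68), BEX2 (1.42) and DMKN (0.72). XBP1 was at 0.091 with library size scaling and 0.40 by TPM, and CANX at -0.068 with the GC trend taken out. Leaving out either hairpin gave log2 ratios of opposite sign for EIF3D (-0.027 to 0.19), XBP1 (-0.64 to 0.39), EGFR (-0.29 to 0.63), CEBPG (-1.53 to 0.0062) and EPCAM (-0.53 to 2.14). No paired analysis was possible because the overexpression group holds 1 library and shares fewer than 2 replicate numbers with the knockdown group. Every gene tested had at least 155 counts over the 3 libraries, and with 3 libraries their number limits the tests.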

Other observations

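Cytosolic heat shock chaperones did not share the position of the ER chaperones. Of 25 members 11 lay above both hairpins (44.0%, against 31.8% of all genes tested) and 1 below both, with a median of 0.20. HSPA8, the constitutive cytosolic HSP70, was at 499.7 scaled CPM in R1A, 243 in sh1088 and 329 in sh1196, and HSPH1, its exchange factor, at 153, 62.5 and 104. R1A was the highest of the 5 libraries for 9 of the 25 (36.0%, against 17.8% of all genes tested). The difference between this list and the unfolded protein response list was not tested.

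Among hypoxia genes 9 of 15 lay below both hairpins (60%, against 32.4% of all genes tested) and 2 above both (13.3%, against 31.8%). ADM, a vasodilator peptide, was at 46.3 in R1A, 95.8 in sh1088 and 91.2 in sh1196, and VEGFA, the angiogenic factor, at 24.9, 43.6 and 45.2. EGLN3, an oxygen sensor, lay on the other side at 17.6, 8.63 and 4.27. Of 12 MHC class I genes 9 lay below both hairpins (75%) and 0 above both, with HLA-C at 13.4, 20.9 and 20.2. The pCDH control was far above the sh control for this list (median 1.59).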
